A study of Rattus norvegicus with 24 samples.

Results

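The regions described here are INO80 peaks that stood alone in saline-treated rats and were also found after cocaine. A saline peak on chromosomes 1 to 20 or X was taken when no other saline peak lay within 10 kb of its edges and when it shared at least 1 bp with a cocaine peak. The rule gave 316 peaks out of 2298 saline peaks on these chromosomes and 2352 in the whole list. Of the 458 solitary saline peaks, 316 were shared (69.0%, Wilson 95% interval 64.6 to 73.1), against 79.8% of all saline peaks on these chromosomes. The calls of both lists chose the regions, so their values are a description and carry no test.

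INO80 is the ATPase of a large chromatin remodelling complex that slides and edits nucleosomes. The complex is found at promoters and enhancers, at replication forks and at sites of DNA repair. In chromatin immunoprecipitation followed by sequencing (ChIP-seq), fragments bound by the antibody pile up over the site, and input DNA sequenced beside it shows how many fragments the site gives without an antibody. A lone peak present in both treatments is a place where occupancy can be set side by side without the crowding of neighbouring saline peaks.

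The tissue was the nucleus accumbens, a part of the ventral striatum in the brain's reward circuit, taken from rats of a cocaine group or a saline group. Rats of the cocaine group had self-administered the drug with extended access and were killed 30 days later. The labels repeat this treatment text for saline rats, so how those were handled is known only as saline treatment. Each treatment had 3 numbered ChIP samples and 3 inputs, in 2 runs each, and the labels leave it unsaid whether a number is 1 animal. They also leave out strain, age and sex. Before calling peaks, the authors pooled the samples of a treatment, so each region has 1 value per treatment and no replicate error, and no difference below was set against the spread between animals. The pools held 37905014 saline and 43489910 cocaine ChIP tags after filtering, and 100697179 and 101490635 input tags. Pileups, the ChIP fragments stacked at a peak's summit, were therefore also scaled to the ChIP tags of their pool. Pileup can also rise with the fragment length set by the caller, 52 bp in saline and 54 bp in cocaine. The scaling left this out, so scaled values can run slightly high in cocaine. A ratio below is the scaled cocaine pileup over the scaled saline pileup, and its 95% interval is an exact binomial one that covers counting error only.

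The 316 pairs of peaks fell into 3 kinds by the input DNA beneath them. Ordinary input means a local background under 3 times the genome-wide level, and deep input means 3 times or more. In 195 pairs (61.7%) the input was ordinary in both lists. In 87 pairs (27.5%) it was deep in both. In the other 34 pairs (10.8%) the saline input was ordinary and the cocaine input deep, a combination seen at 3.38% of all shared saline peaks. The opposite combination, deep in saline and ordinary in cocaine, was found at 0 of the 316 pairs. Among pairs with ordinary input in both lists, the unscaled background had a median of 2.62 input fragments in saline and 2.74 in cocaine. These values are the genome-wide floors that the peak caller does not go below, and 112 of the 195 pairs were at the floor in both lists. Pairs with deep input in both lists had medians of 45 and 50 input fragments. The remaining pairs had a median of 3 input fragments in saline, with a range from 2.62 to 7, and 29.5 in cocaine, with a range from 10 to 54.

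**Figure D1:**
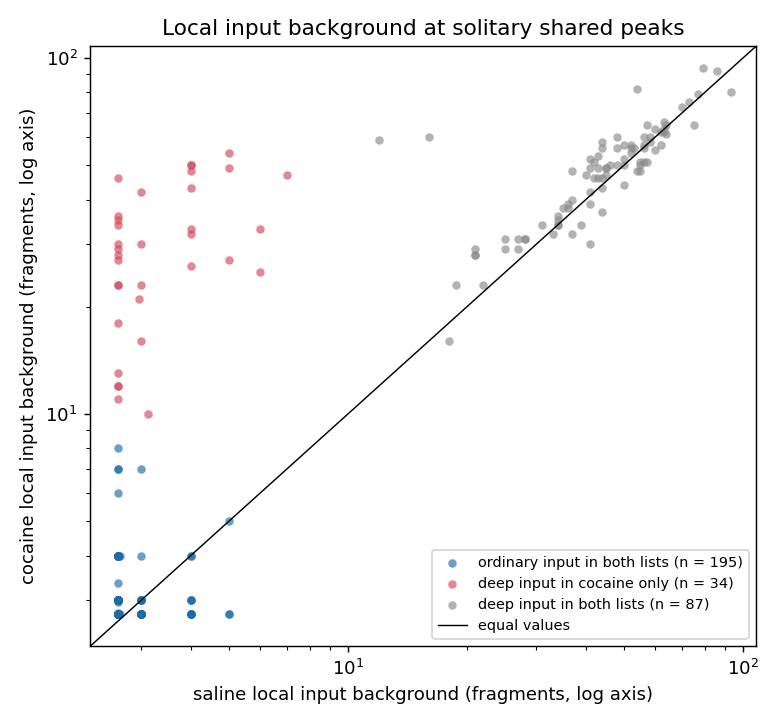
Local input background before scaling to ChIP depth, in fragments on log axes, for saline (horizontal) and cocaine (vertical) at each of the 316 pairs, coloured by kind. The 34 pairs with deep input in cocaine only stand above the line of equal values, with 10 to 54 cocaine fragments against at most 7 in saline.

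At pairs with ordinary input in both lists, INO80 pileup was modestly higher in cocaine. Saline pileups had a lowest value of 7, a median of 11 and a highest value of 29 fragments, and cocaine pileups had 8, 16 and 64. The ranges overlapped widely. The median ratio was 1.26, with quartiles of 1.05 and 1.53, and 156 of the 195 pairs (80.0%) had a ratio above 1, near the 81.4% of all shared peaks with ordinary input in both lists. Over the 316 pairs, 209 (66.1%) had a ratio above 1, against 33.8% of all shared saline peaks. At ordinary pairs the median ratio without scaling was 1.45, with 172 pairs above 1. Leaving out the scaling could only raise the ratios, since the cocaine pool held more ChIP tags, so it is no check on the direction. Subtracting the local background gave a median ratio of 1.29 and 158 pairs above 1. At these pairs the background is small beside the pileup and nearly equal in both lists. Its subtraction could thus hardly change the direction and is no check on it either. Restricting the pairs to the 112 at the background floor in both lists gave a median ratio of 1.23. Most single pairs could not be told from equality at this depth. Counting intervals lay above 1 in 14 of 195 pairs (7.18%), against 10.4% of all shared saline peaks with ordinary input in both lists, and in 0 pairs below 1, against 0% there. A ratio of 2 or more was found in 16 of 195 (8.21%), against 12.1% in that wider set, and a ratio of 0.5 or less in 0, as in the wider set (0%). Fold enrichment over input, the caller's own value within each list, had medians of 6.04 in saline and 7.74 in cocaine at these pairs. The 65189 cocaine peaks of ordinary input on the same chromosomes had a median fold of 7.82 and a median pileup of 18. The cocaine peaks of ordinary pairs, with a median pileup of 16, were thus of ordinary height among cocaine peaks of ordinary input. Over all 316 pairs the median cocaine pileup was 23.

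Saline and cocaine pileups moved together only loosely. Across the 195 pairs, which share both pools, Spearman's rho between them was 0.53. Pairs with the weakest saline peaks, at 7 to 9 fragments (43 pairs), had a median cocaine pileup of 14 and a median ratio of 1.42. Those at 10 to 13 fragments (107 pairs) had a median cocaine pileup of 16 and a ratio of 1.22, and those at 14 or more (45 pairs) had 23 and 1.23. The saline pileup is both the grouping value and the divisor of the ratio, and the caller's threshold bounds it from below, so nothing is read from the higher ratio at the weakest peaks.

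The solitary sites of highest saline fold and ordinary input had ratios from 0.911 to 2.94. The highest saline fold was on chromosome 3 (161376486 to 161376732), with pileups of 23 in saline and 39 in cocaine, a ratio of 1.48 (0.861 to 2.59). Chromosome 8 (23014658 to 23014955) had 29 and 35 fragments, a ratio of 1.05 (0.625 to 1.78). The site on chromosome 6 (76079134 to 76079296) had 22 and 23 fragments, a ratio of 0.911 (0.485 to 1.71), and its nearest saline neighbour lay 17107.9 kb away. The interval of each of these 3 ratios included 1. Pileups of 22 and 34 were found on chromosome 11 (70966972 to 70967300), and of 20 and 33 on chromosome 3 (114064237 to 114064454), with ratios of 1.35 and 1.44. A second site on chromosome 3 (8981947 to 8982230) had 19 and 31 fragments, and one on chromosome 7 (12917597 to 12917774) had 20 and 29. The remaining ordinary site among the 10 highest saline folds was the one with the largest gap. On chromosome 1 (265469266 to 265469604) the pileup was 19 in saline and 64 in cocaine, a ratio of 2.94 (1.74 to 5.19), and the cocaine fold of 29.9 was the highest of all 316 pairs.

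A few ordinary pairs were several times higher in cocaine. The largest ratio was on chromosome 14 (104475047 to 104475164), with pileups of 10 and 51 and a ratio of 4.45 (2.23 to 9.82). Chromosome 7 (75597259 to 75597310) followed with 11 and 56 fragments and a ratio of 4.44 (2.30 to 9.39). Next came chromosome 1 (60717318 to 60717381) with 13 and 51 fragments and a ratio of 3.42 (1.83 to 6.85). Paired sites on chromosome 20, at 3918266 to 3918420 and 5261472 to 5261626, each had a saline pileup of 14, with 50 and 49 in cocaine. Among these 5 pairs with ratios of 3 or more, 4 had a cocaine input over 1.5 times the genome-wide level, from 2.55 to 2.92 times, which only 6 of the 195 pairs had. The chromosome 1 site at 60717318 was the exception, with both inputs at the floor. Whether the input has a part in these ratios was not tested. Smaller ratios were found on chromosome 10 (72544872 to 72544923), with 9 and 28 fragments and a ratio of 2.71, and on chromosome 8 (22111728 to 22111779), with 9 and 26 and a ratio of 2.52.

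At the other end, the lowest ratios of ordinary pairs were shallow and rested on few fragments. A ratio below 1 was found at 107 of the 316 pairs, 39 of them ordinary and 68 with deep input in both lists. The lowest of all pairs was on chromosome 4 (122780518 to 122780668), with 13 saline and 9 cocaine fragments and a ratio of 0.603 (0.228 to 1.53). Chromosome 7 (12404614 to 12404679) had 11 and 8, a ratio of 0.634, and a second site there (109205312 to 109205377) had 14 and 11, a ratio of 0.685. Chromosome 20 (44257150 to 44257219) had 10 and 8 fragments, and chromosome 12 (38274539 to 38274631) had 16 and 13. The interval of each of these 5 ratios included 1. The same held on chromosome 3 for 168018554 to 168018610 (12 and 10 fragments), 79570349 to 79570450 (13 and 11) and 12933878 to 12934033 (16 and 14).

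**Figure D2:**
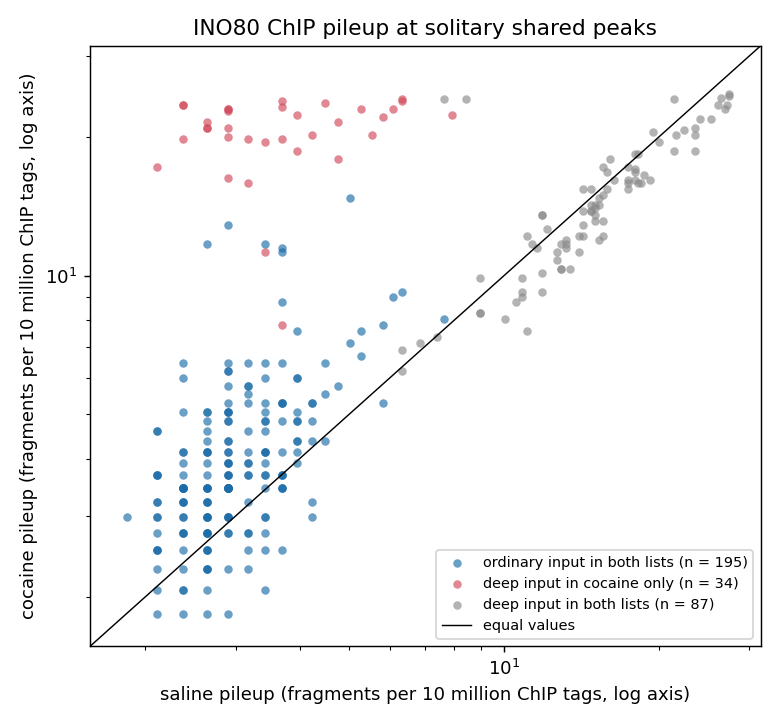
ChIP pileup at the summit, in fragments scaled to the ChIP tags of each pool on log axes, for saline (horizontal) and cocaine (vertical) at each of the 316 pairs, coloured by the kind of input. Ordinary pairs lie somewhat above the line of equal values (median ratio 1.26), pairs with deep input in both lists lie just below it (0.914), and pairs with deep input in cocaine only lie far above it (5.63).

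The pairs with deep input in cocaine only held most of the large differences. All 34 had a ratio of 2 or more, and they made up 34 of the 52 pairs with such a ratio (16.5% of the 316 pairs, against 6.22% of all shared saline peaks). All 28 shared peaks with deep input in cocaine only and a saline neighbour within 10 kb also had such a ratio. Their counting intervals all lay above 1. Counting intervals lay above 1 at 50 of the 316 pairs (15.8%, against 7.26% of shared saline peaks), 34 of them in this kind, and below 1 at 0 of the 316 (against 0.382%). Saline pileups ran from 8 through a median of 13.5 to 30, and cocaine pileups from 34 through 92.5 to 105, so the groups did not overlap. The kind was defined by the cocaine input, and a peak called on deep input needs a high pileup, so this separation follows in part from the definition. Pileup in cocaine was also near its ceiling, which is 108 fragments because 1 tag per position and strand was kept, and 11 of the 34 had 100 or more. The ceiling in saline was 104. Fold enrichment, which takes the input into account, had medians of 6.33 in saline and 6.84 in cocaine, and the saline fold was the higher one in 15 of 34 pairs. ChIP and input were therefore both deep in the cocaine pool at these sites, and the part of the input in the pileup ratio was not tested.

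Ratios in this kind reached 9.88, found at 2 sites with the same pileups of 9 and 102, on chromosome 2 (77587146 to 77587208) and chromosome 3 (143828619 to 143828699). The interval at both was 5.00 to 22.2. Chromosome 6 (94951364 to 94951416) had 9 and 86 fragments, chromosome 16 (27000308 to 27000367) had 10 and 94, and chromosome 17 (80883067 to 80883162) had 8 and 75. Their ratios were 8.33, 8.19 and 8.17. Sites on chromosome 7 (116607035 to 116607086) and chromosome 10 (55677963 to 55678015) both had pileups of 10 and 91, a ratio of 7.93. A further site on chromosome 10 (13537614 to 13537731) had 11 and 100, a ratio of 7.92. The deepest cocaine input of the kind, 54 fragments against 5 in saline, lay on chromosome 10 (85073944 to 85074201), where the pileups were 30 and 97 and the folds 10.8 and 4.06. Chromosome 20 (29848514 to 29848572) combined a high saline fold of 11.1 with pileups of 21 and 88, a ratio of 3.65 (2.25 to 6.19), and the same summit base in both lists. The shallowest cocaine input, 10 against 3.12 fragments, lay on chromosome 11 (55305265 to 55305316), with pileups of 14 and 34 and a ratio of 2.12 (1.11 to 4.27). The highest cocaine background among ordinary pairs was 2.92 times the genome-wide level, and the lowest among these 34 was 3.65 times.

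Pairs with deep input in both lists were close to equal. Saline pileups had a lowest value of 24, a median of 57 and a highest value of 104, and cocaine pileups had 27, 62 and 108. The median ratio was 0.914 with quartiles of 0.863 and 0.987, and 68 of 87 pairs had a ratio below 1, but without scaling the median was 1.05 and 59 pairs were higher in cocaine. The sign of this small difference thus depended on the scaling. Pileups are also bounded by the ceilings of 104 in saline and 108 in cocaine. A pair at both ceilings, on chromosome 15 (56682161 to 56682248), had a scaled ratio of 0.905, near the median of the kind. A cocaine pileup of 100 or more was found in 9 of the 87 pairs. The part of the ceilings in these ratios was not tested. Spearman's rho between the pileups was 0.84 across the 87 pairs. The lowest ratio of the kind, 0.685, was on chromosome 7 (1003966 to 1004017), with 42 and 33 fragments. At the other end 2 pairs had a ratio of 2 or more, on chromosome 5 (138042776 to 138042932) with 29 and 105 fragments and on chromosome 10 (49699217 to 49699376) with 32 and 105. Cocaine input was the deeper one at both, with 60.0 against 16.0 and 59.0 against 12.0 fragments. The highest saline pileup, at the ceiling of 104, was found on chromosome 15 (56682161 to 56682248) beside a cocaine pileup of 108, and on chromosome 19 (57975319 to 57975466) beside 107. Median folds were 3.25 in saline and 2.92 in cocaine.

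Cocaine peaks were longer than the saline peaks they met. Over the 316 pairs the saline length ran from 52 bp through a median of 94 to 346, and the cocaine length from 54 through 202 to 1086. The cocaine peak was the longer one in 270 pairs (85.4%) and the shorter in 39, against 71.9% longer among all shared saline peaks. At ordinary pairs it was the longer one in 181 of 195 (92.8%), against 93.5% of all shared peaks with ordinary input. By kind, the median length went from 104 bp in saline to 241 in cocaine at ordinary pairs, with a median ratio of lengths of 1.97. Deep input in cocaine only gave 78 and 385.5 bp and a ratio of 3.75. Deep input in both lists gave 79 and 82 bp, and a ratio of 1.04, near the 1.05 of shared peaks with such input and a saline neighbour. The smallest possible saline peak, 52 bp or 1 fragment length, was found 29 times. In cocaine the fragment length, and with it the smallest possible peak, was 54 bp. A length ratio as near 1 as that at deep input in both lists is therefore not read as a longer cocaine peak. The part of the fragment lengths in the length ratios was not tested. For comparison, all cocaine peaks of ordinary input had a median length of 101 bp. The cocaine peaks at ordinary pairs, with 241 bp, were longer although their pileup was not high. A long peak meets the 1 bp overlap of the rule more readily, so this contrast is in part fixed by the rule. The 36 shared peaks with ordinary input in both lists and a saline neighbour within 10 kb had a median cocaine length of 483 bp.

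Saline peaks mostly lay within the cocaine peak. The whole saline peak was inside it in 220 of 316 pairs (69.6%), against 52.9% of all shared saline peaks, and the reverse was found in 15. Neither contained the other in 81 pairs. The saline summit itself lay inside the cocaine peak in 305 pairs. At ordinary pairs the saline peak was inside in 137 of 195 (70.3%), which is close to the 71% of all shared peaks with ordinary input. The longest saline peak was on chromosome 3 (161344997 to 161345342), with 346 bp inside a cocaine peak of 446 bp and pileups of 15 and 33. The longest saline peaks after it lay on chromosome 1 (265469266, 339 bp), chromosome 7 (120559346, 337 bp), and on chromosomes 5 and 11 (86554033 and 70966972, both 329 bp). Long cocaine peaks over short saline ones were found on chromosome 1 (186640399 to 186641478 over an 81 bp saline peak), chromosome 11 (83976481 to 83977439 over 115 bp) and chromosome 18 (24781429 to 24782372 over 52 bp). These 3 were of the kind with deep input in cocaine only. Overlap was shortest on chromosome 12 (30810993 to 30811075), where 13 bp were shared with the nearer of 2 cocaine peaks. That site was the single one met by 2 cocaine peaks. The next shortest overlaps were 19 bp on chromosome 8 (61752271) and 21 bp on chromosome 3 (148636081).

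**Figure D3:**
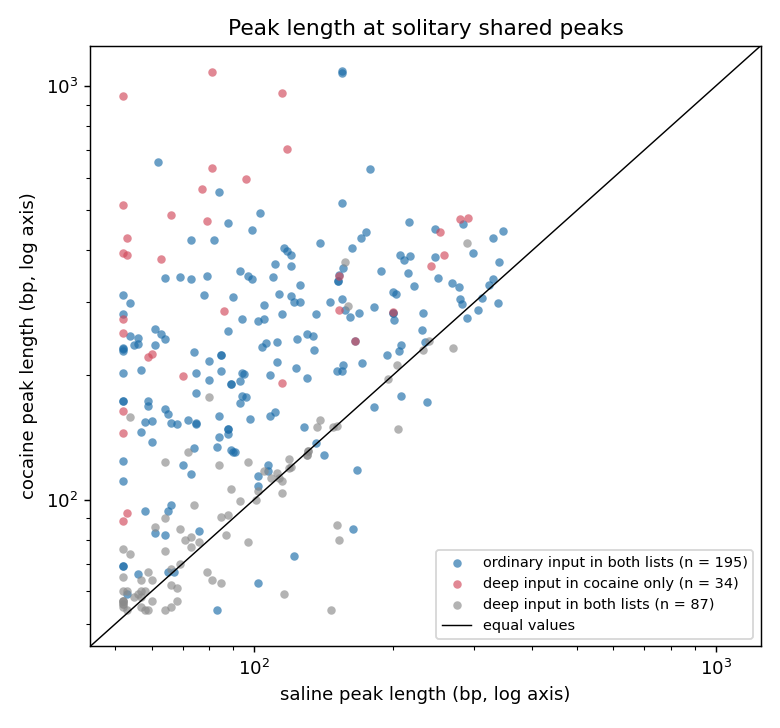
Peak length in bp on log axes for saline (horizontal) and cocaine (vertical) at each of the 316 pairs, coloured by kind. Pairs with deep input in both lists follow the line of equal values (medians 79 and 82 bp), and ordinary pairs lie above it (104 and 241 bp).

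Summits of a pair lay closest where the input was deep in both lists. The rule asks the peaks of a pair to overlap, so their lengths bound the summit distance, and its smallness is in part fixed by the rule. Peaks with deep input in both lists were also shorter, with median lengths of 79 bp in saline and 82 bp in cocaine. At ordinary pairs these were 104 and 241 bp. The part of the lengths in the distances was not tested. The median distance was 24 bp over all 316 pairs, with quartiles of 5 and 69 bp. It was within the saline fragment length of 52 bp in 219 pairs (69.3%), against 78.7% of all shared saline peaks. At ordinary pairs the median was 44 bp and 115 of 195 (59.0%) were within 52 bp, against 54.1% of all shared peaks with ordinary input. At pairs with deep input in both lists the median was 3 bp, 75 of 87 lay within 10 bp and 13 had the same summit base. The 1453 shared peaks with such input and a saline neighbour within 10 kb had a median of 5 bp. The pairs with deep input in cocaine only had a median of 14.5 bp, but 11 of 34 had summits over 100 bp apart. The cocaine summit lay to the left in 159 of all pairs and to the right in 141. At ordinary pairs these counts were 99 and 95, at pairs with deep input in cocaine only 11 and 21, and at pairs with deep input in both lists 49 and 25. Shared peaks with a saline neighbour within 10 kb had 671 to the left and 665 to the right. Those of them with deep input in cocaine only had 12 and 14. No direction is read from these counts. Where pileups are low and a summit rests on about 11 fragments, its place is less exact, and the precision was not estimated here.

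The largest distance, 803 bp, was found at both chromosome 20 sites (3918266 and 5261472), whose cocaine peaks were the long ones of 1076 and 1086 bp. The next were 378 bp on chromosome 15 (37030184 to 37030245, pileups of 11 and 27), 297 bp on chromosome 13 (89873701 to 89873779, 13 and 85) and 288 bp on chromosome 17 (80883067). Summits were over 200 bp apart in 10 pairs.

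**Figure D4:**
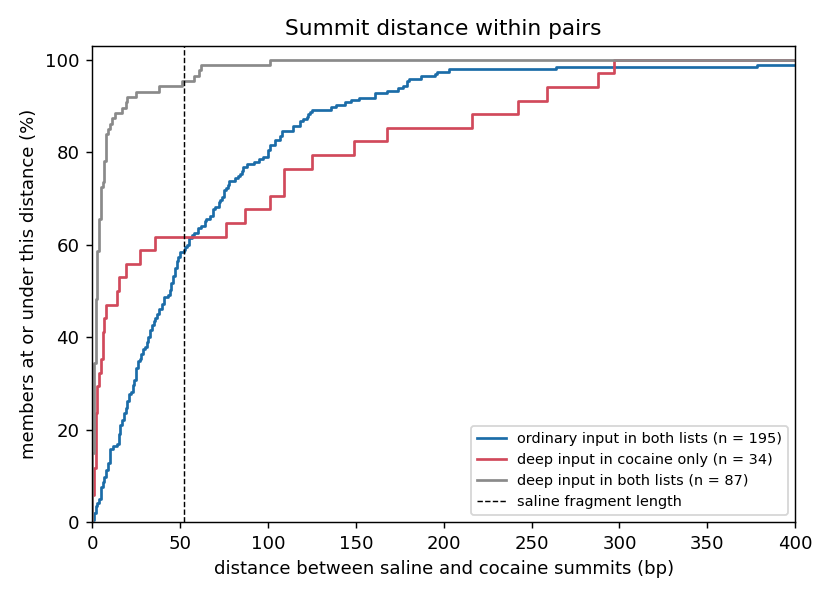
Share of pairs, in percent, whose saline and cocaine summits lie at or under a distance in bp, by kind, with the saline fragment length of 52 bp as a dashed line. The curve for deep input in both lists rises at once (median 3 bp), and that for ordinary pairs rises more slowly (44 bp), while 2 ordinary pairs at 803 bp lie beyond the axis.

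These regions had fewer cocaine peaks around them than shared saline peaks with a saline neighbour had. A saline neighbour that is itself shared adds a further cocaine peak, so the rule fixes part of this contrast. On these chromosomes the cocaine list held 71280 peaks and the saline list 2298. Further cocaine peaks, not touching the saline peak, lay within 10 kb of 192 of the 316 (60.8%), against 92.5% of all shared saline peaks. The number ran from 0 through a median of 1 to 20. It was 1 at 57 regions (18.0%), 5 or more at 63 (19.9%) and 10 or more at 22 (6.96%). Among shared peaks with a saline neighbour within 10 kb these shares were 2.04%, 84.2% and 60.4%. At ordinary pairs 131 of 195 (67.2%) had further cocaine peaks, against 70.1% of all shared peaks with ordinary input, and the median was 2. Pairs with deep input in cocaine only had them in 28 of 34, with a median of 3.5, and pairs with deep input in both lists in 33 of 87, with a median of 0. Where there were further peaks, the nearest lay at a median of 632.5 bp, and within 1 kb in 113 of 192 regions. Joining cocaine peaks less than 500 bp apart before counting left 50.3% of the 316 with further peaks.

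The cocaine peak shared with saline was the tallest of its group in 86 of 192 regions with further peaks. Among ordinary pairs with further peaks it had the highest cocaine pileup within 10 kb in 39 of 131 (29.8%), and in 57 it ranked below the middle of its group. Among pairs with deep input in cocaine only, it was the highest in 23 of 28, and among pairs with deep input in both lists in 24 of 33. Partner peaks of these kinds have high pileups by definition. The number of further peaks was little related to the ratio. Its median was 1.22 at the 64 ordinary pairs without further peaks, 1.26 at the 83 with 1 to 4 and 1.35 at the 48 with 5 or more, and their quartiles overlapped. Across the 195 pairs, Spearman's rho between the number of further peaks and the ratio was 0.13.

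Most further peaks, 20, surrounded a weak shared site on chromosome 1 (221159136 to 221159210), with pileups of 8 and 14, where the highest further cocaine peak had 40 fragments. Another on chromosome 1 (100845674 to 100845890) had 19 further peaks, pileups of 10 and 20, and a chain of 70 cocaine peaks, each less than 10 kb from the next, over 76.8 kb. The site on chromosome 1 at 175895149 had 18, with pileups of 13 and 49 and deep input in cocaine only. On chromosome 4 (157230461 to 157230606) there were 17, with pileups of 10 and 13. Chromosome 10 held 3 such sites. Those at 57275504 and 57290834 lay 15.1 kb apart in 1 chain of 41 cocaine peaks and had pileups of 18 and 94, with deep input in cocaine only, and of 17 and 28, with ordinary input. At 35870841 they were 8 and 20. A site on chromosome 19 (25969131 to 25969203) had 16 further peaks, pileups of 11 and 15, and a further cocaine peak of 88 fragments. The chromosome 20 site at 5261472 had 16 as well.

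At the opposite extreme, 124 of the 316 saline peaks met a cocaine peak that was alone within 10 kb as well. Among the ordinary ones of these, 64 in all, saline pileups had a median of 11 and cocaine pileups of 16. The strongest were already named on chromosomes 3 (161376486 and 114064237), 11 and 1 (265469266). They were followed by chromosome 3 (60105596 to 60105783), with 17 and 24 fragments, chromosome 13 (89707996 to 89708306), with 16 and 19, and, level in saline fold with 3 others, chromosome 1 (134887946 to 134888223), with 15 and 21. The ratios of these 3 were 1.23, 1.04 and 1.22, and each interval included 1. A chromosome 1 site at 186641360, with 23 and 100 fragments, was alone too, with deep input in cocaine only.

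**Figure D5:**
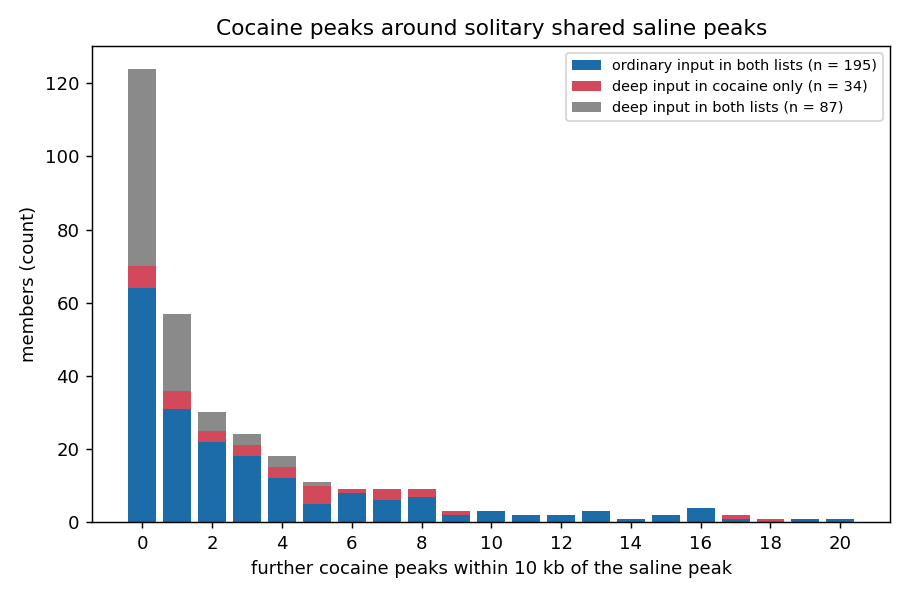
Number of further cocaine peaks within 10 kb (horizontal) and the count of regions with that number (vertical), stacked by kind of input. Of the 316 regions 124 had none, 54 of them with deep input in both lists, and the tail of 10 or more (22 regions) holds 20 ordinary pairs.

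Some of the regions repeated each other. In 7 pairs of regions the saline length, cocaine length, saline pileup, cocaine pileup and the offset between the starts of their 2 peaks were all equal. On chromosome 3, the sites at 4872552 and 5464479 both had peaks of 88 and 148 bp and pileups of 11 and 15, and 10 of the 13 cocaine summits around the first recurred around the second, within 3 bp of the same offset. Also on chromosome 3, the sites at 151724000 and 152258513 both had pileups of 8 and 11, and all 9 cocaine summits recurred. The other equal pairs were on chromosome 10 (35040784 and 37134842; 105182928 and 105259835), chromosome 14 (78754722 and 78893496), chromosome 19 (56126171 and 56421048), and on chromosomes 7 and 16 (74962906 and 21510809). A further match was mirrored. Around the chromosome 20 sites at 3918266 and 5261472, 6 of 16 and 17 cocaine summits matched within 3 bp when the order of one site was reversed, and the summit offsets were -803 and 803 bp. The sites on chromosome X at 15325057 and 15425870 shared 4 of 6 cocaine summits, with pileups of 15 and 81 and of 14 and 86. These 9 matches hold 18 of the 316 regions, which were looked for after the values were seen. Alignment names in the file headers state unique reads, and whether these sites share sequence was not analysed here. Counting each match once left 307 regions and a median ratio of 1.16, against 1.19 over all 316.

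The regions were spread over all 21 chromosomes. On 18 chromosomes their share was nearer to that of the cocaine list than of the saline list, and on 3 (4, 19 and X) it was nearer to that of the saline list. Chromosome 1 held 53 of them (16.8%), beside 37.3% of saline peaks and 13.5% of cocaine peaks. Chromosome 10 held 35 (11.1%), beside 2.13% of saline and 8.54% of cocaine peaks, and chromosome 3 held 25 (7.91%), beside 4.61% and 7.90%. At ordinary pairs the shares of chromosomes 1, 3 and 10 were 14.4%, 11.3% and 12.8%. Chromosome X held 4 (1.27%), beside 1.26% of saline and 3.96% of cocaine peaks, and chromosome 4 held 7 (2.22%), beside 2.00% and 5.40%. The distance to the nearest other saline peak had a median of 625.53 kb, and 50 of the 316 had another of the 316 within 100 kb.

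Beside the shared solitary peaks, 142 solitary saline peaks met no cocaine peak. Of these, 57 had ordinary input, with a median length of 63 bp, pileup of 10 and fold of 5.17, against 104 bp, 11 and 6.04 at the 195 ordinary pairs. A cocaine peak lay within 10 kb of 16 of the 57. Sharing was found at 229 of 286 solitary saline peaks with ordinary input (80.1%, 75.1 to 84.3) and at 87 of 172 with deep input (50.6%, 43.2 to 58.0). Over all 2298 saline peaks of these chromosomes, of which 1943 had deep input, 79.8% were shared. The 50.6% therefore holds for solitary peaks of deep input and not for deep input in general. Shared saline peaks that had a saline neighbour within 10 kb, 1517 in all, were mostly of deep input in both lists (1453). Just 36 of them had ordinary input in both, with a median ratio of 1.78, a cocaine length of 483 bp and 5.5 further cocaine peaks, against 1.26, 241 bp and 2 at the 195 solitary ones. No test was made of these contrasts, since the rule and the peak calls fix part of each. Most saline peaks with ordinary input were solitary (286 of 355, 80.6%), while few with deep input were (172 of 1943, 8.85%).

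The 10 kb limit cut through pairs of deep input with like values. The nearest regions just inside had saline neighbours at 10076, 10082 and 10436 bp, on chromosome 7 (4341727), chromosome 1 (194931812) and chromosome 7 (514944), with ratios of 0.836, 0.829 and 0.890. Shared peaks just outside had neighbours at 9163, 9113 and 8929 bp, on chromosome 7 (22367620), chromosome 6 (30618852) and chromosome 15 (50103764), with ratios of 0.788, 0.787 and 0.835.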

How the data were processed

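The peak lists were made with MACS 2.0.10.20131216, per the file headers, on 3 ChIP alignments together against 3 inputs, with a q cutoff of 0.05. Per the submitters' processing notes, rn6 was the build; aligner not given in the sources used here. Each deposited pileup is a signal in fragments, not scaled. The deposited fold is a ratio, the pileup plus 1 divided by the local input background plus 1, and was solved for that background. The deposited p-value and q-value columns are −log10 values, and a Poisson recalculation came within 6.29e-05 of each deposited −log10 p. Lengths and summits are in bp per the file headers. Where 2 cocaine peaks met a region, the longer overlap was used.

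The regions, kinds and lists were chosen with earlier results of these data known. Named regions are, by rule, those with the highest saline fold, the extreme ratios, most and no further cocaine peaks, the largest summit distances and lengths, and those nearest the limits. Sites named by their repeats, deepest or shallowest input, highest saline pileup or high ratio at deep input were picked after their values were seen. Genes and sequences were not analysed here, since the annotation at hand is of another build. Overlap and counting steps were tested on simulated data. Python 3.11.15, numpy 2.4.6, pandas 2.3.3, scipy 1.17.1 and matplotlib 3.10.9 were used.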

Additional observations from a re-analysis of the deposited data

How the results depend on the processing

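Asking for 50% of both peaks to overlap left 176 regions, with a median ratio of 1.04, 7.95% at a ratio of 2 or more, a summit distance of 8 bp, a length ratio of 1.12 and further cocaine peaks at 55.1%. Ordinary input in both lists alone gave 1.26, 8.21%, 44 bp, 1.97 and 67.2%, in the same order. Against 1.19 for all regions, the median ratio was 1.11 with an isolation distance of 5 kb, 1.36 without scaling and 1.30 when scaled to pairs with deep input in both lists, a setting added after seeing the data. Against 16.5%, the share at a ratio of 2 or more was 23.1% without scaling, and 12.0% had a ratio of 3 or more. Against 60.8%, further cocaine peaks were found at 50.3% within 5 kb, and at 50.3% after joining peaks less than 500 bp apart. The median ratio stayed above 1 under each setting tried, but not every setting could lower it. Leaving out the scaling and scaling to pairs with deep input in both lists could only raise it. The choice among overlapping cocaine peaks bears on 1 region. Among pairs with deep input in both lists alone, the median scaled ratio was 0.914. An isolation distance of 20 kb (296 regions), a −log10 q of at least 3 (259 regions), background subtraction, the choice among overlapping cocaine peaks and counting repeats once (307 regions) moved the medians and shares they bear on by less than their 95% binomial intervals. No paired analysis was possible because each list pools its samples, and no sample could be left out. Depth limits the ordinary pairs: with a median of 11 saline fragments, most single ratios have intervals that include 1.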
